A study of Neurospora crassa with 6 samples.

Results

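Neurospora crassa, a filamentous fungus that grows on plant material, takes up glucose in preference to other sugars. The account covers 5 genes of sugar uptake and of carbon catabolite repression, chosen by name from the 10559 genes of the table: the glucose transporter gene NCU01633, rco-3, the cellobiose transporter gene cdt-1, cre-1 and CreD. Of the 5 names, 4 are row names of the table. rco-3 is not, and its row is the one named sor-4, because the reference gene table gives rco-3 as an older symbol of sor-4 (NCU02582). cre-1 is NCU08807 and cdt-1 is NCU00801 in that reference, whereas CreD matched no entry there. NCU01633 carries no symbol or product in the table or the reference, and its role as a glucose transporter is that given by the selection.

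Carbon catabolite repression keeps the genes for less favoured carbon sources low while glucose is present. CRE-1, a zinc-finger repressor, binds the promoters of many such genes, including those for cellulose breakdown and the uptake of its products. RCO-3 belongs to the sugar transporter family and acts in sensing glucose and in regulating its transport. CDT-1 carries cellobiose and longer cellodextrins, the products of cellulose breakdown, into the cell. CreD is known from Aspergillus nidulans as an arrestin-like protein with a part in carbon catabolite repression.

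Hyphae came from a strain labelled as lacking cry, vvd and wc-1, the genes of the cryptochrome and of the blue-light photoreceptors VIVID and White Collar-1, and every library used here carries that genotype. After 2 weeks on minimal slants they spent 45 min in 2% glucose medium in darkness, at 1000 lux or at 5000 lux, with 2 libraries of polyadenylated RNA per condition. Nothing in the labels tells whether the paired libraries are separate cultures. The p-values here rest on the spread between libraries of a condition, which may be technical. For each gene that spread is combined with a trend over all genes tested (residual degrees of freedom 3, prior 6.87). Light and darkness are compared here within 1 genotype, so no value shows what the deletions do.

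The values are RPKM, read numbers scaled by gene length and library depth. Between 16451977 and 21619628 reads per library fell on genes. None of the genes given as deleted was at 0. wc-1 lay between 6.31 and 9.04 RPKM, vvd between 1.95 and 3.44 and cry between 1.59 and 2.56, and without an intact strain these values do not check the labels. Of the 2 conidiation genes used as markers of another cell form, eas ranged over 173 to 212 RPKM in the dark, 70.6 to 76.1 under 1000 lux, and 169 to 231 under 5000 lux. con-10 ranged over 0.681 to 1.51, 2.80 to 3.18 and 1.77 to 2.14 RPKM in the same order. Their part in the results below was not tested, and in bulk RNA a change in the share of a cell form cannot be told apart from a change of RNA per cell.

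All 5 genes passed the minimum of 1 RPKM in at least 2 libraries, as did 7841 genes in all. The conditions were compared with limma on log2(RPKM + 1), and a gene is called at a Benjamini-Hochberg adjusted p under 0.05 over those 7841 genes. At 1000 lux against darkness 2 of the 5 were called, cdt-1 higher and cre-1 lower, where 16.9% of all genes tested were called. At 5000 lux against darkness 2 were called, NCU01633 and cdt-1, both higher, against 9.62% of all genes. Between 5000 and 1000 lux 1 was called, NCU01633, higher at 5000 lux, against 3.02% of all genes. rco-3 and CreD were called in none of the 3 comparisons. The 5 genes were chosen with earlier results of these data known. Their counts beside the shares of all genes are therefore no test of the 5 as a group. The comparisons against darkness share their 2 dark libraries and are not independent of each other. Groups whose libraries did not overlap were common: 58.8%, 52.9% and 48.6% of all genes tested in the 3 comparisons in this order.

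**Figure D1:**
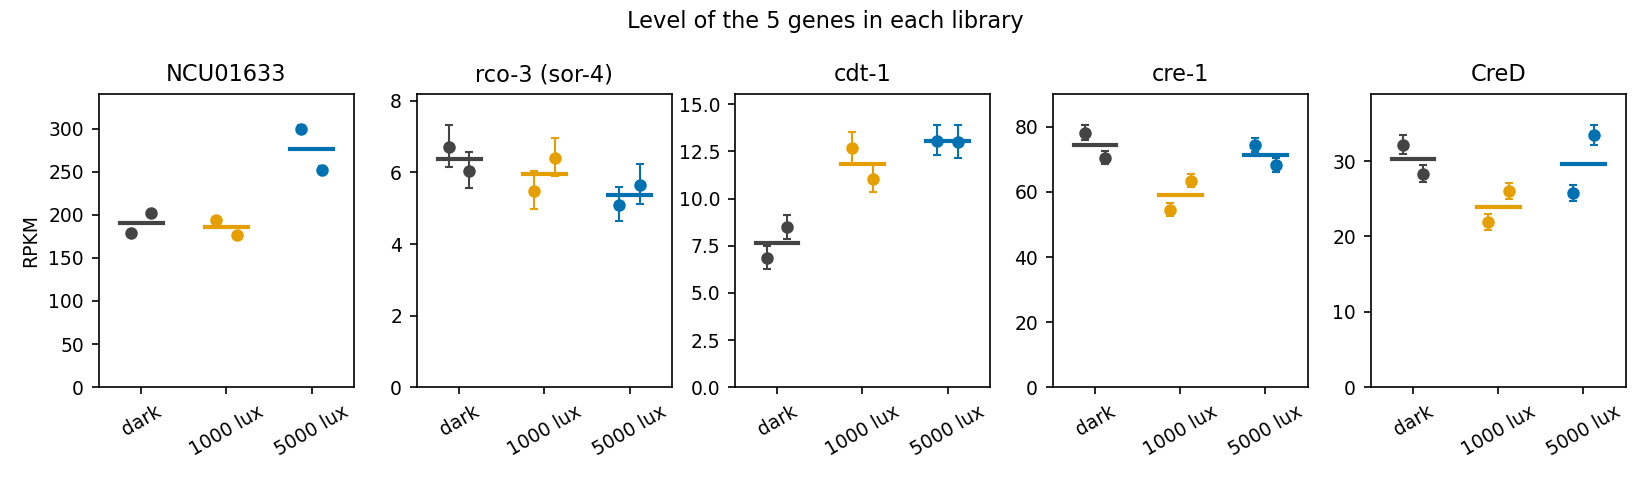
RPKM of each of the 5 genes in the 6 libraries, in panels with their own vertical axis from 0; points are libraries, bars are 95% Poisson intervals of the reads (counting error only) and horizontal lines are the means of 2 libraries. The bars are too narrow, since the reads are not all independent of each other. NCU01633 is highest at 5000 lux, cdt-1 lowest in darkness, and cre-1 and CreD have their lowest library at 1000 lux.

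NCU01633 was the most abundant of the 5 transcripts per length and stood above 96.6% to 98.0% of the genes of the table in every library. Its level was 179.3 and 201.6 RPKM in the dark, 193.5 and 177.0 under 1000 lux, and 300.0 and 252.4 under 5000 lux. Both libraries at 5000 lux lay above all of the other 4, while darkness and 1000 lux overlapped. The means were 190.5 ± 15.8 RPKM in the dark, 185.3 ± 11.7 under 1000 lux, and 276.2 ± 33.6 under 5000 lux (SD, n = 2, as for all means here).

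At 5000 lux the log2 fold change of NCU01633 was 0.53 against darkness (SE 0.10, limma adjusted p = 0.0118), a 1.44-fold difference. Against 1000 lux it was 0.57 (SE 0.10, limma adjusted p = 0.0192). At 1000 lux against darkness the log2 fold change was -0.04, with a 95% interval from -0.27 to 0.19 (limma adjusted p = 0.833). The rise at 5000 lux against darkness was not called without dark replicate 1 (0.45, limma adjusted p = 0.0511) or without 5000 lux replicate 1 (0.41, limma adjusted p = 0.109), and with no variance trend its limma adjusted p was 0.0516. The difference from 1000 lux was not called without 1000 lux replicate 1, 1000 lux replicate 2 or 5000 lux replicate 1, at log2 fold changes of 0.63, 0.51 and 0.45.

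cdt-1 was the gene of the 5 that rose at both light intensities. It had 6.85 and 8.48 RPKM in the dark, 12.7 and 11.1 under 1000 lux, and 13.1 and 13.0 under 5000 lux. All 4 light libraries lay above both dark ones. The 2 dark libraries were further apart than their counting intervals, 6.25 to 7.50 against 7.88 to 9.12 RPKM, whereas the 2 libraries at 5000 lux nearly coincided. These intervals are too narrow, since the reads are not all independent, so the gap in darkness may not exceed counting error.

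The means of cdt-1 were 7.67 ± 1.15 RPKM in the dark, 11.9 ± 1.14 under 1000 lux, and 13.0 ± 0.0573 under 5000 lux. Against darkness the log2 fold change was 0.57 at 1000 lux, with SE 0.12 and limma adjusted p = 0.0124. At 5000 lux it was 0.70, with SE 0.12 and limma adjusted p = 0.00794. Between the 2 intensities it was 0.13, with a 95% interval from -0.14 to 0.40 (limma adjusted p = 0.685). Leaving out 1000 lux replicate 1 ended the call at 1000 lux (0.48, limma adjusted p = 0.118). Leaving out 5000 lux replicate 1 (0.70, limma adjusted p = 0.0659) or 5000 lux replicate 2 ended the call at 5000 lux (0.71, limma adjusted p = 0.0563).

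cdt-1 overlaps NCU10770 in the reference, and reads of overlapping genes may be shared between them, since the counting is not given in the sources used here. NCU10770 itself was listed at 0 to 0.648 RPKM in the 6 libraries. Its range was 0 to 0.246 RPKM in the dark, 0 to 0.268 under 1000 lux, and 0.134 to 0.648 under 5000 lux.

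rco-3, the sugar sensor gene, lay at 6.72 and 6.06 RPKM in the dark, 5.48 and 6.42 under 1000 lux, and 5.10 and 5.65 under 5000 lux. Both libraries at 5000 lux were below both dark ones, and the libraries at 1000 lux overlapped both other conditions. The means were 6.39 ± 0.468, 5.95 ± 0.658 and 5.37 ± 0.388 RPKM.

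The log2 fold changes of rco-3 were -0.09 at 1000 lux against darkness (95% interval -0.38 to 0.20), -0.21 at 5000 lux against darkness (-0.50 to 0.07) and -0.12 between the 2 intensities (-0.41 to 0.16). The limma adjusted p-values were 0.678, 0.349 and 0.716. With 405 to 573 reads per library, rco-3 and cdt-1 (471 to 1035 reads) were the least deeply covered of the 5. In darkness cdt-1 stood at 1.02 and 1.40 times the RPKM of rco-3, at 1000 lux at 2.31 and 1.72 times and at 5000 lux at 2.57 and 2.30 times.

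cre-1, the gene of the repressor itself, fell at 1000 lux by a small amount. Its level was 78.2 and 70.5 RPKM in the dark, 54.6 and 63.5 under 1000 lux, and 74.3 and 68.2 under 5000 lux. Both libraries at 1000 lux were below the other 4, and darkness and 5000 lux overlapped. The means were 74.3 ± 5.48, 59.0 ± 6.29 and 71.3 ± 4.31 RPKM, and in every library the gene stood above 88.7% to 92.3% of the table.

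The log2 fold change of cre-1 at 1000 lux against darkness was -0.33 (SE 0.10, limma adjusted p = 0.0498), just inside the threshold. It was not called in 6 of 11 other settings, over which the limma adjusted p ranged from 0.0260 to 0.109. With the replicate number as a block the limma adjusted p was 0.0578. It was also lost without dark replicate 1 (-0.26), 1000 lux replicate 1 (-0.22), 5000 lux replicate 1 or 5000 lux replicate 2 (-0.33 each). At 5000 lux against darkness the log2 fold change was -0.06, with a 95% interval from -0.28 to 0.17 (limma adjusted p = 0.772). Between 5000 and 1000 lux it was 0.27, with an interval from 0.05 to 0.50 (limma adjusted p = 0.222), so the difference between the intensities was not called.

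CreD had condition means in the same order as those of cre-1, at a lower level. It had 32.2 and 28.3 RPKM in the dark, 21.9 and 25.98 under 1000 lux, and 25.8 and 33.4 under 5000 lux. Both libraries at 1000 lux lay below both dark ones, and of the 2 libraries at 5000 lux, 1.30-fold apart, one was below and one above both dark ones. The means were 30.2 ± 2.70, 24.0 ± 2.88 and 29.6 ± 5.39 RPKM.

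The log2 fold change of CreD at 1000 lux against darkness was -0.33 (95% interval -0.63 to -0.03, limma adjusted p = 0.130), close in size to that of cre-1 but with a wider interval. At 5000 lux against darkness it was -0.04 (-0.34 to 0.26, limma adjusted p = 0.893), and between the intensities 0.29 (-0.01 to 0.59, limma adjusted p = 0.347). With 1 library left out the value at 1000 lux against darkness ran from -0.44 to -0.21 and that between the intensities from 0.11 to 0.47, none of them called. The RPKM of cre-1 was 2.43 and 2.49 times that of CreD in darkness, 2.49 and 2.44 times at 1000 lux, and 2.88 and 2.04 times at 5000 lux. The 2 genes therefore kept a nearly constant ratio in the 4 libraries of darkness and 1000 lux.

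**Figure D2:**
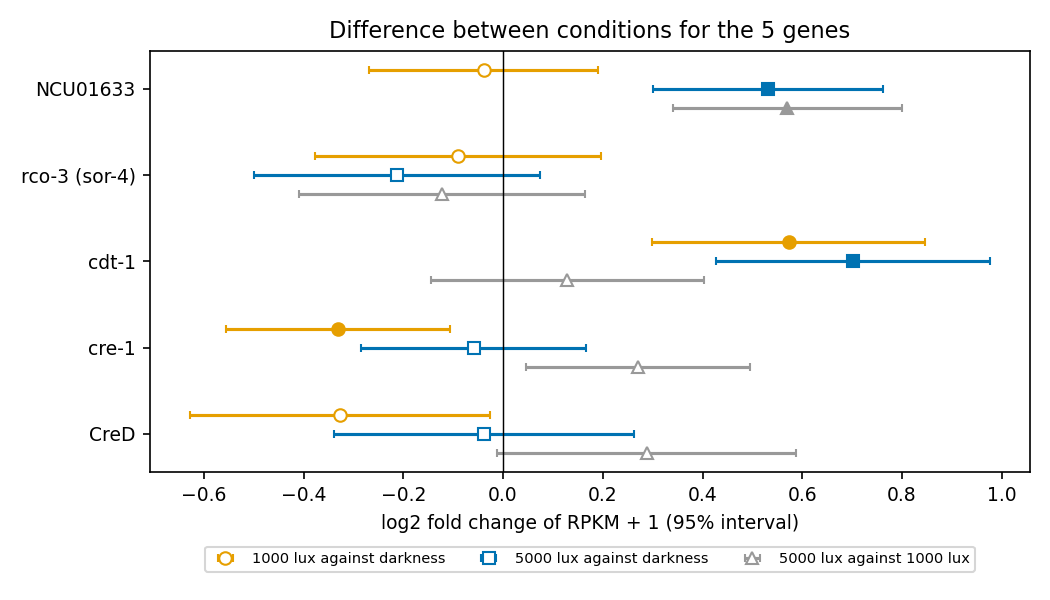
Log2 fold changes of RPKM + 1 for the 5 genes in the 3 comparisons, with 95% limma intervals; filled symbols are called at an adjusted p under 0.05. NCU01633 at 5000 lux (0.53 and 0.57) and cdt-1 at both intensities (0.57 and 0.70) lie to the right of 0, and cre-1 at 1000 lux (-0.33) to the left.

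By mean RPKM in darkness the 5 genes were ordered NCU01633, cre-1, CreD, cdt-1 and rco-3, and all but the last 2 were separated by more than their spread. cdt-1 and rco-3 nearly touched in darkness, where the lower library of cdt-1 (6.85 RPKM) and the higher one of rco-3 (6.72) had overlapping counting intervals. At 1000 lux and 5000 lux every library of cdt-1 was above every library of rco-3. Among the fold changes of all genes tested at 5000 lux against darkness, cdt-1 stood at the 97.8th percentile and NCU01633 at the 95.2nd. For 5000 against 1000 lux NCU01633 stood at the 98.6th percentile. At 1000 lux against darkness cdt-1 stood at the 95.4th percentile, and the falls of cre-1 and CreD at the 12th and 12.2nd, counted from the lowest fold change.

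The other genes of sugar uptake and use are given as 5 lists, drawn up with earlier results of these data known. Their counts and medians are therefore a description and no test of a list. Beside their counts stand the shares of all genes tested: at an unadjusted limma p under 0.05 these were 31% at 1000 lux against darkness, 24.9% at 5000 lux against darkness and 15.6% between the intensities. With voom on the recovered reads 19.1%, 11.9% and 4.18% of all genes were called in the same order.

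Other sugar transporter genes were taken from a list given by locus tag. Of its 9 genes 6 passed the minimum level, and of these 0 were called at 1000 lux by limma, 1 was higher at 5000 lux against darkness and 0 were called between the intensities. The called gene, NCU00821, had 11.4 and 11.6 RPKM in the dark, 13.4 and 12.4 under 1000 lux, and 17.4 and 15.9 under 5000 lux. Its log2 fold change at 5000 lux was 0.50 against darkness (SE 0.10, limma adjusted p = 0.0142), a call lost without 5000 lux replicate 1 (0.44) or 5000 lux replicate 2 (0.56).

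The median log2 fold change of the transporter list at 5000 lux against darkness was 0.21 over the 6 genes tested, beside 0.02 over all genes tested. At 1000 lux it was 0.08 beside 0.00, and between the intensities 0.38 beside 0.03. At 1000 lux against darkness 2 of the 6 had an unadjusted limma p under 0.05, hgt-1 (0.878 to 1.86 RPKM) at -0.45 and NCU05853 at 0.42; both were called with no variance trend and neither with voom. Between the intensities 3 of the 6 did, NCU05627 at 0.55, NCU04963 at 0.48 and NCU00821, and 0 were called with voom. In that comparison 4 of the 6 log2 fold changes were above 0, while NCU00988 and NCU05853 were below it, at -0.37 and -0.20. NCU04963 had 5.89 and 7.49 RPKM in the dark, 6.50 and 6.79 under 1000 lux, and 10.6 and 8.85 under 5000 lux, and its log2 fold change of 0.48 at 5000 lux against darkness had a limma adjusted p of 0.0550 and was called with voom. NCU05627 (2.11 to 4.68 RPKM) and NCU00988 (1.11 to 1.99 RPKM, overlapping NCU00987) were not called. No listed transporter gene exceeded 17.4 RPKM, so NCU01633 had over its whole range a higher level than each of them.

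cdt-2, the gene of the other cellodextrin transporter, did not pass the minimum level. It had 0.374 and 0.843 RPKM in the dark, 0.0435 and 0.325 under 1000 lux, and 0.0765 and 0.208 under 5000 lux, below cdt-1 in every library. The remaining 2 genes below the minimum, NCU01132 and NCU02188, reached at most 0.717 and 0.130 RPKM.

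Genes of glucose repression and glucose signalling formed a list of 12, all tested, and 0 were called at 1000 lux against darkness by limma. At 5000 lux 1 was higher, both against darkness and against 1000 lux. It was NCU00575, which carries no symbol in the table, was listed as glk-1 and overlaps NCU14040. Its level was 55.8 and 53.6 RPKM in the dark, 55.2 and 59.9 under 1000 lux, and 78.3 and 74.5 under 5000 lux. The log2 fold change was 0.47 against darkness, with limma adjusted p = 0.00836, and 0.40 against 1000 lux, with limma adjusted p = 0.0358, each with SE 0.08. The first was lost without 5000 lux replicate 1 (0.44), and the second without 1000 lux replicate 1 or 2 (0.35 and 0.46) or 5000 lux replicate 1 or 2 (0.37 and 0.44).

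The co-repressor gene rco-1 lay between 72.6 and 88.8 RPKM, emp-1 between 129 and 145 and vib-1, which encodes a transcription factor, between 72.9 and 87.9, and none of the 3 was called. At 1000 lux 3 of the 12 log2 fold changes were above 0, with a median of -0.10. An unadjusted limma p under 0.05 was found for 4 of the 12 there, beside 31% of all genes, with vib-1, col-26, cr-1 and pkac-1 at -0.21, -0.33, -0.26 and 0.22. col-26 encodes a transcription factor of starch use and glucose sensing, cr-1 the adenylyl cyclase and pkac-1 a catalytic subunit of protein kinase A. With voom 2 of the 12, col-26 and cr-1, were called at 1000 lux, both lower, beside 19.1% of all genes.

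Genes for enzymes that act on cellulose and other plant polymers were listed together with genes of their regulators. Many of them are known targets of CRE-1, and they were mostly low, near or below the minimum of 1 RPKM. Of 17 listed, 11 were tested and 6 were below the minimum. At 1000 lux 1 was lower, 0 were higher and the median log2 fold change was -0.15, and 0 were called in the other 2 comparisons by limma or voom. At an unadjusted limma p under 0.05 there were 2 of the 11 at 1000 lux against darkness, beside 31% of all genes, gh6-3 lower and NCU05846 higher (0.25). At 5000 lux against darkness there was 1 gene, gh6-3, which was called there with no variance trend, and between the intensities 0. The lower gene was the glycoside hydrolase gene gh6-3, with 3.94 and 2.83 RPKM in the dark, 1.44 and 1.53 under 1000 lux, and 1.77 and 1.93 under 5000 lux. Its log2 fold change at 1000 lux was -0.81 (SE 0.18, limma adjusted p = 0.0146), lost without dark replicate 1 (-0.62), 1000 lux replicate 1 (-0.78) or 1000 lux replicate 2 (-0.83). With a pseudocount of 5 RPKM it was -0.37, still called, and the gene overlaps NCU15135.

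The cellulase regulator gene clr-1 lay between 6.07 and 8.01 RPKM, and NCU05846 and NCU07898 lay between 11.7 and 14.4 and between 2.26 and 4.84 RPKM, none of them called. clr-2, another regulator gene of this list, was below the minimum with 0.570 and 1.71 RPKM in the dark, 0.144 and 0.231 under 1000 lux, and 0.403 and 0.167 under 5000 lux. The cellobiohydrolase gene cbh-1 had 2.20 and 2.57 RPKM in the dark, 1.35 and 1.86 under 1000 lux, and 1.40 and 1.71 under 5000 lux, with no call.

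In the list of sucrose, starch and quinate use all 10 genes were tested, and 1 was lower at 1000 lux. It was inv, the invertase gene, with 11.7 and 8.81 RPKM in the dark, 6.15 and 6.50 under 1000 lux, and 8.96 and 9.24 under 5000 lux. It fell by 0.61 on the log2 scale (SE 0.13, limma adjusted p = 0.0141), a call lost without dark replicate 1 (-0.42) or 1000 lux replicate 1 (-0.57), and inv overlaps NCU04264. Over the list the median log2 fold change was -0.18 at 1000 lux against darkness, 0.03 at 5000 lux against darkness and 0.08 between the intensities. In these last 2 comparisons 0 were called by limma or voom, and 0 and 2 had an unadjusted limma p under 0.05. At 1000 lux against darkness 2 of the 10 had one, gla-1 and inv, beside 31% of all genes. The glucoamylase gene gla-1 (12.8 to 18.0 RPKM), gh13-1 (149 to 172) and qa-1S (5.35 to 6.41) were not called.

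The glycolysis list held 9 genes, all tested, and counted with them cfp, which is not a gene of glycolysis proper. At 1000 lux against darkness 1 was higher, the only 1 of the 9 with an unadjusted limma p under 0.05 there, beside 31% of all genes. At 5000 lux 0 were called in either comparison by limma or voom. There 2, cfp among them, had an unadjusted limma p under 0.05 against darkness, and 1 against 1000 lux. The gene higher at 1000 lux was NCU07550, with 1139 and 1122 RPKM in the dark, 1417 and 1372 under 1000 lux, and 1108 and 1210 under 5000 lux. Its log2 fold change of 0.30 (SE 0.08, limma adjusted p = 0.0267) was lost without dark replicate 1 or 2 (0.31 and 0.29) or 1000 lux replicate 1 or 2 (0.28 and 0.33). It was also lost with no filter (limma adjusted p = 0.0658), with no variance trend (limma adjusted p = 0.0798) and with quantile normalization (0.20, limma adjusted p = 0.101), and the gene overlaps NCU07549. The levels of gpd-1, which encodes glyceraldehyde-3-phosphate dehydrogenase, ran from 3587 to 4557 RPKM. emp-7 ran from 3413 to 3976 and cfp, the pyruvate decarboxylase gene, from 1907 to 2194 RPKM. At 5000 lux against darkness 1 of the 9 log2 fold changes was above 0, with a median of -0.11, and none of the 9 shared the call of NCU01633. NCU00575, listed as glk-1 among the glucose signalling genes and not counted here, did share that call (0.47). emp-1, listed there as hxk-2, was not called (-0.09).

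**Figure D3:**
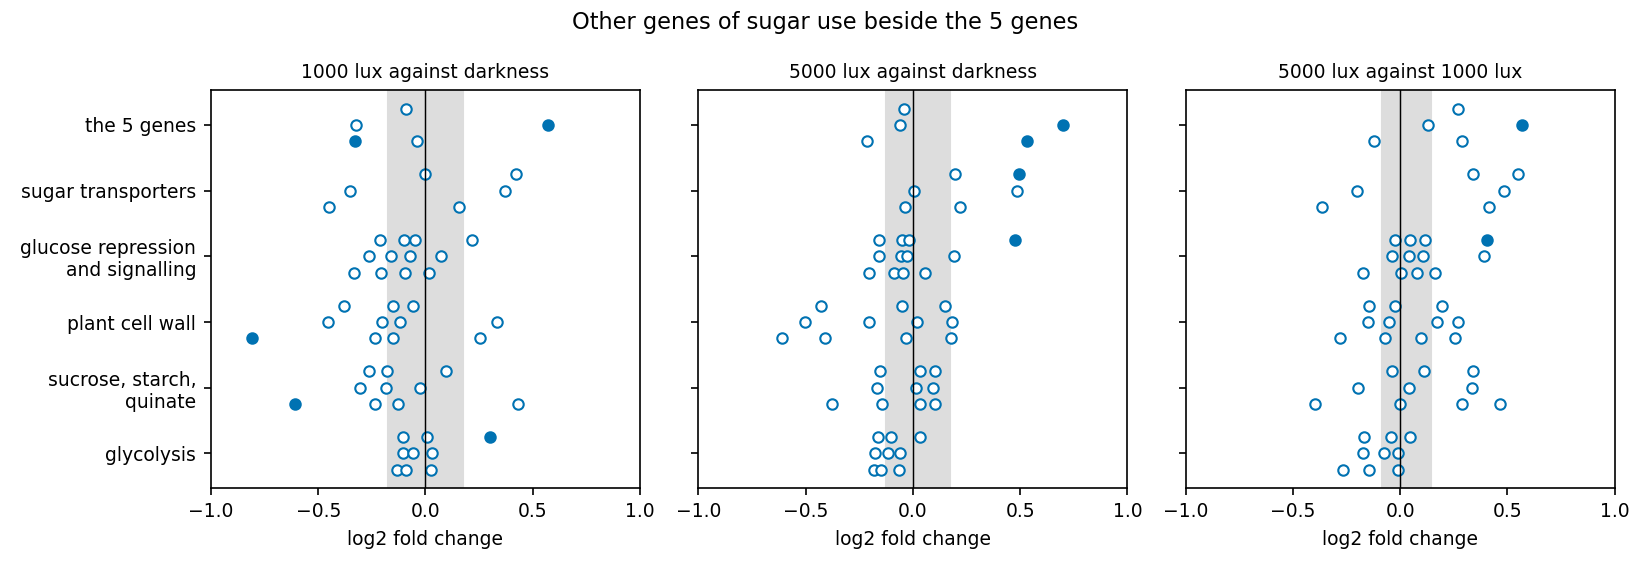
Log2 fold changes of the 5 genes and of the tested genes of 5 lists, 1 point per gene, in the 3 comparisons; filled points are called by limma and the grey band is the middle range, from the lower to the upper quartile, of all genes tested. NCU00821 (0.50) and NCU00575 (0.47) are the filled points of their lists at 5000 lux against darkness, and gh6-3 (-0.81) and inv (-0.61) the low ones at 1000 lux.

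For the 3 genes with a call, the closest patterns among the other 7840 genes tested were found by the root-mean-square difference of centred log2(RPKM + 1) over the 6 libraries. They are given as a description. For NCU01633 the closest were NCU02702 (0.07), the listed transporter gene NCU04963 (0.07) and NCU05516 (0.09), where NCU01633 itself varied by 0.28 about its mean. NCU02702 went from 4.07 and 4.82 RPKM in darkness to 8.10 and 5.85 at 5000 lux, and NCU05516 from 19.8 and 22.5 to 29.8 and 30.6.

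For cdt-1, which varied by 0.32, the closest were NCU09352, NCU00650 and NCU01638 at 0.05 each. NCU09352 had 9.31 and 10.6 RPKM in the dark, 17.4 and 14.6 under 1000 lux, and 16.5 and 17.3 under 5000 lux. For cre-1, which varied by 0.17, they were ppm-3 (0.03), NCU07851 (0.04) and NCU03991 (0.04). ppm-3 had 101 and 86.1 RPKM in the dark, 70.6 and 77.0 under 1000 lux, and 92.8 and 86.3 under 5000 lux. CreD was not among the 3 closest to cre-1.

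**Figure D4:**
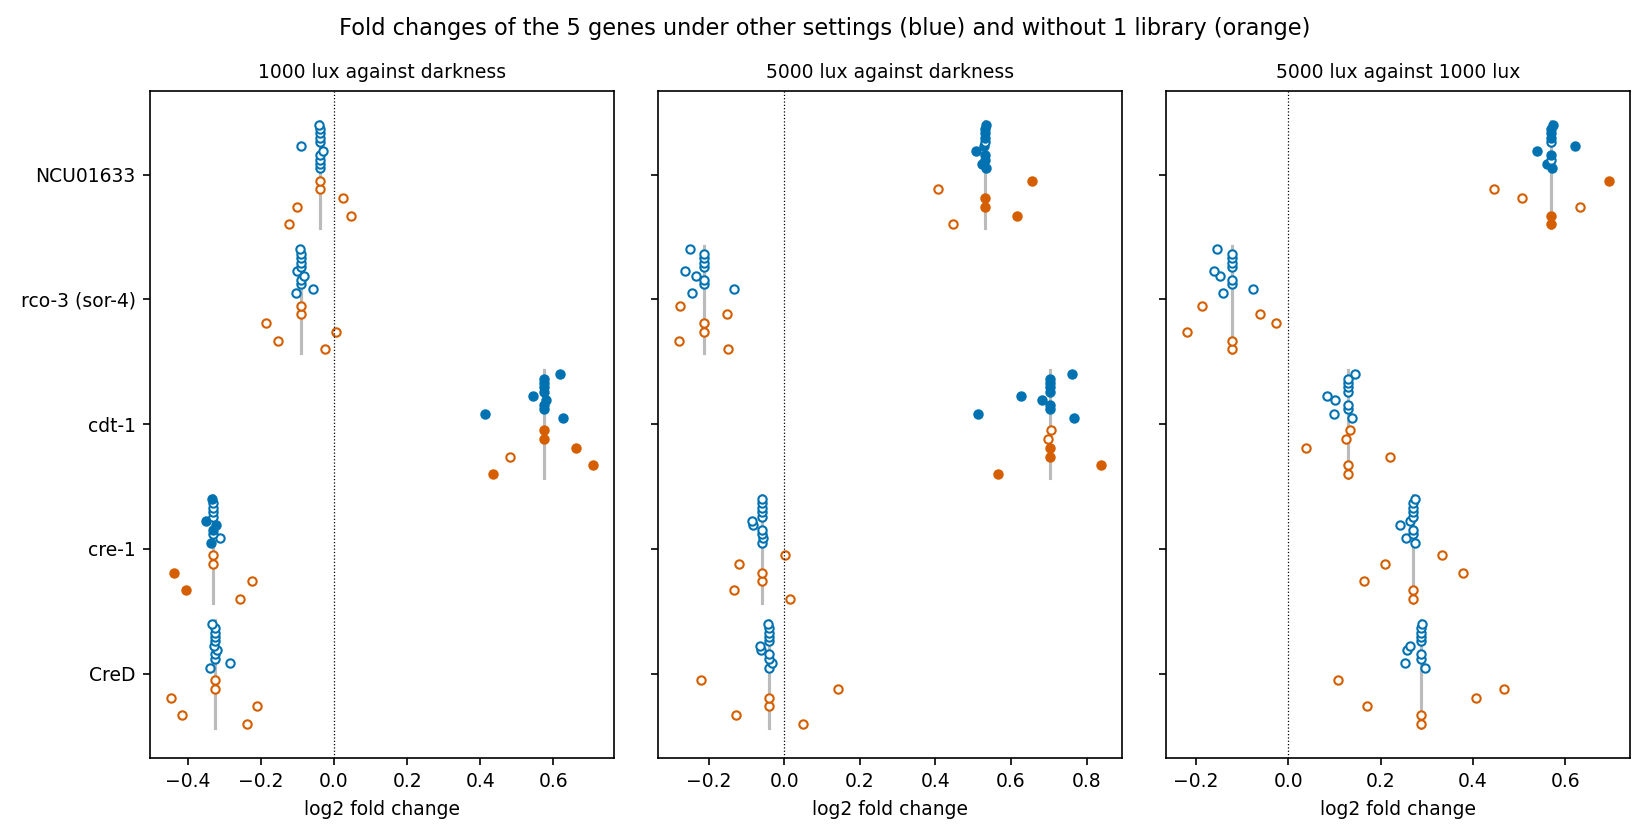
Log2 fold changes of the 5 genes in the 3 comparisons under 11 other settings (blue) and with each of the 6 libraries left out in turn (orange); grey lines are the values reported above, filled points are called by limma, and points are spread vertically only to separate them. For cdt-1 against darkness all 11 settings were called at both intensities, and for cre-1 at 1000 lux 5 of 11.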

How the data were processed

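The RPKM values of the 6 libraries are as the authors deposited them. CASAVA 1.8 and HISAT are named in the submitters' processing notes, with no roles. Genome build, annotation, counting tool and use of strand: not given in the sources used here. A RefSeq gene table of the NC12 assembly, matched by 10526 of 10559 genes, served for symbols and overlaps. Its gene lengths were also used to work out library depth, on which the recovered reads rest, and in the check of odd numbers. Read numbers were recovered from the steps between RPKM values, whole to within 0.005 reads plus a relative 3e-07 in all libraries for 9772 of 9773 genes above 0. For 1289 of them, with under 20 reads in every library, the gene length and so the read numbers are ambiguous. Odd numbers made up 33.5% to 43.8% of counts of 1 to 10, so the reads are not all independent of each other and Poisson intervals are too narrow.

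The test was limma 3.58.1 (R 4.3.3) on log2(RPKM + 1) for genes reaching 1 RPKM in 2 or more libraries, with a variance trend and the 3 conditions in 1 fit (residual degrees of freedom 3, prior 6.87). Fold changes understate those of low genes. Figures were drawn with matplotlib 3.10.9.

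The members and lists were chosen with earlier results of these data known. Named from each list are up to 6 called genes and the 3 others of highest mean level; hgt-1, NCU05853, cdt-2, NCU01132, NCU02188, col-26, cr-1, pkac-1, clr-2 and cbh-1 were added after their values were seen. Of 5 lists, gpr-4 and gh13-6 were dropped because the reference gives those symbols to other locus tags. Alternatives were pseudocounts of 0.1 and 5 RPKM, no filter or one of 5 RPKM, median-of-ratios and quantile scaling, library weights, a fit without the variance trend, a fit of the compared groups alone, a replicate block, voom on recovered reads, and each library left out in turn.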

Additional observations from a re-analysis of the deposited data

Results flagged for a closer look

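In both cases below the response to light differed between the 2 intensities by the test of that difference, limma at 5000 against 1000 lux, which shares the light libraries with the comparisons against darkness. NCU01633 was higher at 5000 lux by a log2 fold change of 0.57 (SE 0.10, limma adjusted p = 0.0192), with both 5000 lux libraries above both 1000 lux libraries. NCU00575 was higher by 0.40 (SE 0.08, limma adjusted p = 0.0358), again in both libraries. Each call was lost without a filter on low values and without a variance trend, at limma adjusted p = 0.0687 and 0.0976 for NCU01633. For NCU00575 the limma adjusted p reached 0.112 over the 11 settings.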

How the results depend on the processing

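Of the 5 genes, 2 were called at 1000 lux against darkness, and 1 with a pseudocount of 5 RPKM, no filter, library weights, no variance trend, the compared groups alone or the replicate block. At 5000 lux against darkness the number called went from 2 to 1 with no variance trend, where NCU01633 was lost. Between 5000 and 1000 lux it went from 1 to 0 with no filter or no variance trend. With each library left out in turn the numbers called ranged from 0 to 2, from 0 to 2 and from 0 to 1 in the same order; such a fit leaves 1 library in a condition, assumed to vary like the others, and so has less power.

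The sign turned for 7 log2 fold changes, all of them not called: NCU01633 at 1000 lux without dark replicate 2 (0.046) or 1000 lux replicate 2 (0.025), rco-3 at 1000 lux without 1000 lux replicate 1 (0.007), cre-1 at 5000 lux against darkness without dark replicate 1 (0.015) or 5000 lux replicate 2 (0.002), and CreD there without dark replicate 1 (0.050) or 5000 lux replicate 1 (0.142). With 1 library left out, the lowest values of these 4 comparisons were -0.123, -0.186, -0.133 and -0.219 in this order. The cause was not tested. No scaling moved the median of all genes by over 0.1.

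No strong effect shared by libraries of the same replicate number was seen: differences between replicates correlated at -0.087 to 0.052 between conditions. Whether such libraries shared a culture or a day is not given in the labels, and these correlations cannot decide it. With the replicate block 737 genes were higher and 606 lower at 1000 lux, beside 716 and 613 without it, and cre-1 was the member whose call was lost.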
